A study of Mus musculus with 13 samples.

Results

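Tumours of a mouse mammary carcinoma line that overexpressed NLRX1 were compared between hosts that lacked Nlrx1 and hosts that had it. The comparison took 4 of the 12 tumour arrays of the study, namely the 2 from Nlrx1-/- BALB/c mice and the 2 from WT BALB/c mice that had received the overexpressing line, 4T1OE. They were chosen by these labels alone. The study had injected 1 of 3 cell lines into a single mammary fat pad: 4T1OE, its overexpression control 4T1OE-CTL, or parental 4T1. Tumours were flash frozen, total RNA was pooled, and each pool was hybridised to a Clariom S mouse array. Each host and line was represented by 2 arrays, all of them pools, so every error below measures the spread between pools. The number, age and sex of the mice behind a pool, the promoter that drove NLRX1 and the number of clones in the transduced lines were not given in the sources used here. Nlrx1 was missing in the mouse only, since carcinoma cells of every line have an Nlrx1 gene, and 4T1OE cells the transduced copy as well.

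NLRX1 is a NOD-like receptor that, unlike its relatives, carries a mitochondrial targeting sequence and is found at mitochondria. In mouse and human cells it has been described as a brake on MAVS-dependent antiviral signalling and on NF-kB, and as a factor in reactive oxygen species production and cell metabolism. 4T1 is a BALB/c mammary carcinoma line that grows in immunocompetent mice of its own strain, where it draws in neutrophils and macrophages. In such a graft the host supplies immune cells, vessels and fibroblasts, so a host genotype can act on the RNA of these cells and, through them, on that of the carcinoma cells. In a whole tumour, fewer cells of a type and less RNA per cell cannot be told apart, and this holds for every gene below.

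All values are log2 expression values as deposited, 1 per array feature, and a difference is the mean of the Nlrx1-/- arrays minus the mean of the WT arrays on this scale, so that -1 is a halving. After control features had been dropped, 22206 features were compared. The 4 arrays had medians of 5.89 to 5.97, standard deviations of 3.09 to 3.12 and correlations between pairs of 0.986 to 0.991 across features. Between 41.3% and 44.2% of features lay under the median of the negative control features of their array. A gene under it on both arrays of a side is called dim there, and its difference is then given as at least a bound. The carcinoma cells were well represented, with Krt18 at 15.45 and 15.90 on the Nlrx1-/- arrays and 15.63 and 15.31 on the WT arrays, and Krt8 at 14.40 and 15.17 against 14.50 and 14.43. Cdh1, which encodes E-cadherin, was at 11.09 and 10.51 against 11.06 and 11.62, while Krt19 was dim in both hosts. The macrophage receptor gene Csf1r was at 14.12 and 13.67 against 13.47 and 13.38.

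Of the 4 arrays, 2 stood apart in genes of other tissues. Nlrx1-/- replicate 1 was high in lymphocyte and lymph node genes. Glycam1, a ligand made by high endothelial venules, was at 12.75 there, 4.33 on the other Nlrx1-/- array, and 3.97 and 4.31 on the WT arrays. Cxcl13, the chemokine of B cell follicles, was at 14.04 and 5.39 against 6.06 and 5.79. The same held for replicate 1 of the Nlrx1-/- hosts in the other lines, with Cxcl13 at 15.18 in 4T1OE-CTL and 12.83 in parental tumours. That parental array was the 1 whose label advised exclusion after a principal component analysis, and it was left out of the fits. WT replicate 1 was high in skeletal muscle genes, with the myosin gene Myh4 at 5.71 and 4.79 on the Nlrx1-/- arrays against 15.09 and 4.74 on the WT arrays. Krt10, a keratin gene of the epidermis, was highest on WT replicate 1 too, at 11.42. Results that rest on these arrays are given with and without them. Genes in this paragraph were picked with their values in view.

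**Figure D1:**
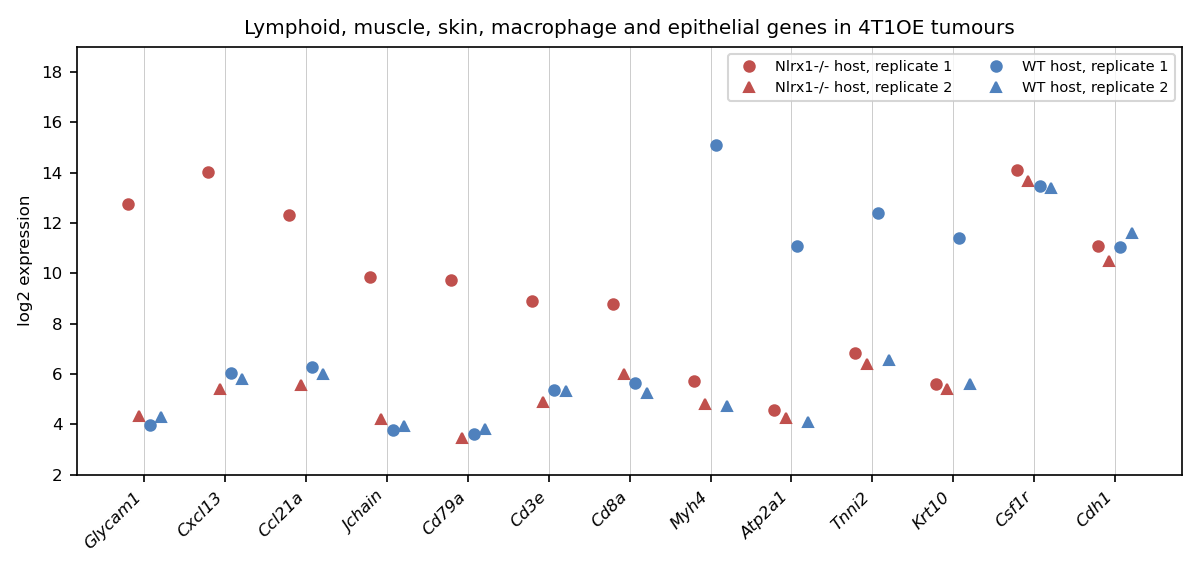
Log2 expression of lymphoid, muscle, skin, macrophage and epithelial genes on the 4 arrays of 4T1OE tumours (vertical axis), with Nlrx1-/- hosts in red left of WT hosts in blue, circles for replicate 1 and triangles for replicate 2. Nlrx1-/- replicate 1 stands above the other 3 arrays in the 7 lymphoid genes on the left, and WT replicate 1 stands above them in Myh4, Atp2a1, Tnni2 and Krt10.

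The feature for Nlrx1 itself did not separate the hosts. It read 9.93 and 10.67 on the Nlrx1-/- arrays and 10 and 9.31 on the WT arrays, so the groups overlapped. An exact permutation test, two-sided, on the difference of 0.65 gave p = 0.667, where 2 arrays against 2 allow 6 splits and no p below 0.333. Both hosts had received the same transduced cells, so the value is no check of the mouse genotype. In tumours of the overexpression control, 4T1OE-CTL, Nlrx1 was at 6.39 and 5.99 in Nlrx1-/- hosts and 7.06 and 6.93 in WT hosts, a difference of -0.81. In parental tumours the hosts overlapped. Nlrx1 was at 6.61 on the fitted Nlrx1-/- array and 6.75 on the one left out, against 6.14 and 7.13 in WT hosts.

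No feature passed the test between hosts in 4T1OE tumours. With limma, fitted over 11 tumour arrays with 1 mean for each of the 6 groups, 0 of 22206 features (0%) had a Benjamini-Hochberg adjusted p under 0.05, and every adjusted p rounded to 1. An unadjusted p under 0.05 was found for 194 features (0.874%), 72 higher (0.324%) and 122 lower (0.549%) in Nlrx1-/- hosts. Where nothing differs, a threshold of 0.05 takes a fraction of 0.05 of features, and 0.874% is a smaller share. Unadjusted p is therefore used below only to pick and count genes. The median standard error of a difference was 0.336. Because 2 arrays against 2 leave little room for calls, genes are also described by a rule with no p: both Nlrx1-/- arrays on the same side of both WT arrays and a mean difference of 1 or more. This rule took 61 features higher (0.275%) and 76 lower (0.342%) in Nlrx1-/- hosts, where groups that merely do not overlap were found for 7183 features (32.3%). Over all features the differences had a median of 6e-04, with the middle of the distribution, between the quartiles, from -0.17 to 0.17. The words higher and lower below describe the arrays, and adjusted p = 1 in limma applies to every difference between hosts in 4T1OE tumours.

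Slc40a1 had the smallest spread against its size among the genes that the comparison was proposed for. It encodes ferroportin, the iron exporter of macrophages and other cells. Its values were 7.58 and 7.71 in Nlrx1-/- hosts and 9.16 and 9.89 in WT hosts, with no overlap. The difference was -1.88 (SE 0.361, 95% interval -2.68 to -1.07), which is 3.67-fold lower in Nlrx1-/- hosts. Across the 11 fitted arrays the 2 WT arrays of 4T1OE tumours were the highest for this gene, and the highest array of any other group was at 8.03. In 4T1OE-CTL tumours it was at 5.79 and 6.61 in Nlrx1-/- hosts and 7.95 and 7.46 in WT hosts. The fitted Nlrx1-/- parental array, at 8.03, lay above the WT parental arrays, at 6.79 and 6.96. The Nlrx1-/- parental array left out of the fits, at 6.61, lay below both. Without any 1 of the 4 arrays the difference ran from -2.24 to -1.51.

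Iron and heme handling genes as a list were not lower along with Slc40a1. Of 28 measured, 0 passed, 0 were higher and 1, Slc40a1 itself, lower at an unadjusted p under 0.05, and 12 differences were positive and 16 negative, with a median of -0.07. Hmox1, the heme oxygenase that frees iron from heme, was at 13.46 and 13.11 in Nlrx1-/- hosts and 14.10 and 14.43 in WT hosts, a difference of -0.98 (SE 0.562). Hamp, whose product hepcidin causes ferroportin to be degraded, was at 7.81 and 7.02 against 7.04 and 6.72, with overlapping groups. The haemoglobin scavenger receptor gene Cd163 was at 8.10 and 8.13 against 8.49 and 9.11, a difference of -0.68 (SE 0.487).

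Mmp9, which encodes a gelatinase that neutrophils store and macrophages secrete, was at 7.22 and 7.73 in Nlrx1-/- hosts and 9.54 and 9.90 in WT hosts. No array overlapped, and the difference was -2.24 (SE 0.623, 95% interval -3.63 to -0.85), or 4.73-fold lower in Nlrx1-/- hosts. Mmp9 lay lower in Nlrx1-/- hosts in the other lines too, by a fitted -1.28 in 4T1OE-CTL and -1.97 in parental tumours. Of the 6 WT arrays of the study, 5 were above all 5 fitted Nlrx1-/- arrays, the exception being replicate 2 of 4T1OE-CTL, at 7.83.

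Other matrix-degrading enzymes were lower with it. Mmp12, the macrophage metalloelastase, was at 14.03 and 14.08 in Nlrx1-/- hosts and 15.93 and 16.86 in WT hosts, a difference of -2.34 (SE 1.03). Mmp13, a collagenase, was at 10.99 and 11.76 against 12.61 and 14.38, a difference of -2.12 (SE 1.09). Mmp8, the neutrophil collagenase, was near background, at 5.48 and 5.39 against 5.82 and 6.52. Of these, Mmp9, Mmp12 and Mmp13 met the rule without a p. The list of 22 metalloproteinases and their TIMP inhibitors thus held 0 higher and 3 lower, beside 0.275% and 0.342% of all features. Mmp9 was among the genes that the comparison was proposed for, so its place in this count adds no support. Of the 22, Mmp9 and Mmp12 had an unadjusted p under 0.05, and 7 were dim on all 4 arrays. Timp1, the inhibitor that binds MMP9, was at 10.10 and 10.66 against 11.53 and 10.38 with overlapping groups, and was picked with its values in view. The list's median was -0.23.

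The urokinase gene Plau, whose product activates plasminogen and is a further arm of pericellular proteolysis, was closely alike within hosts, at 10.65 and 10.69 in Nlrx1-/- hosts and 11.63 and 11.78 in WT hosts. The groups were far apart against that spread, with a difference of -1.04 (SE 0.265).

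**Figure D2:**
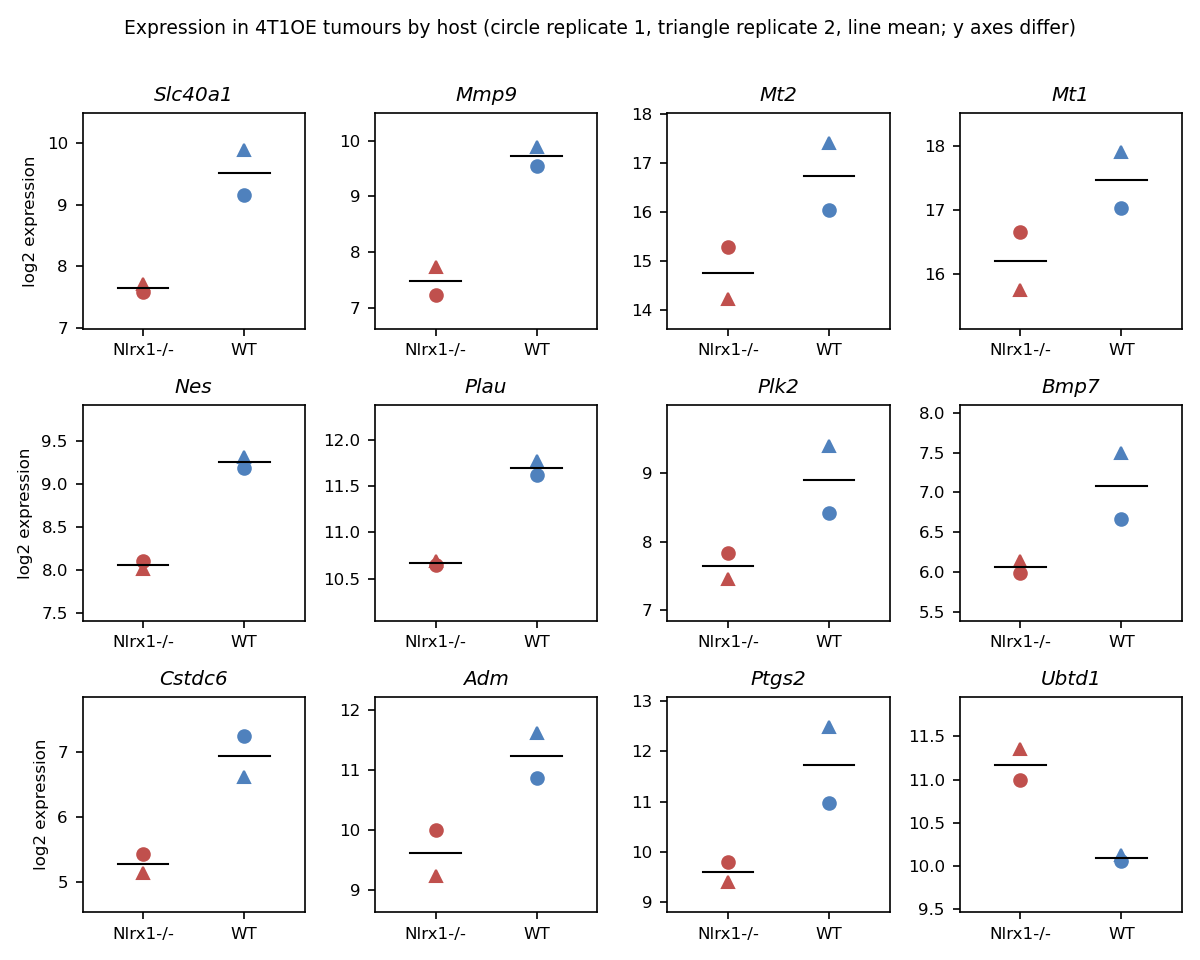
Log2 expression of 12 genes on each array of 4T1OE tumours (vertical axes, with a range of their own per gene), with Nlrx1-/- hosts left and WT hosts right, circles for replicate 1, triangles for replicate 2 and lines at group means. In 11 of the genes both Nlrx1-/- arrays lie under both WT arrays, and in Ubtd1 above them.

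Metallothioneins are small cysteine-rich proteins that bind zinc and copper, and their genes are switched on by the metal-sensing factor MTF1 and by glucocorticoids. Mt2 was at 15.29 and 14.23 in Nlrx1-/- hosts and 16.05 and 17.41 in WT hosts. The difference was -1.97 (SE 0.549, 95% interval -3.19 to -0.74), or 3.91-fold lower, and the groups did not overlap although each spanned more than 1 unit. Mt1, its neighbour on chromosome 8, was at 16.66 and 15.75 against 17.03 and 17.92, a difference of -1.27 (SE 0.406). The order of the arrays was the same for both genes, with Nlrx1-/- replicate 2 lowest and WT replicate 2 highest. Mt1 and Mt2 are close in sequence, so each feature may read part of the other's RNA. Mt3 was dim on all 4 arrays. Beyond the pair the list of 16 metallothionein and zinc handling genes showed little, with 7 positive and 9 negative differences, a median of -0.10, and 2 at an unadjusted p under 0.05, which were Mt1 and Mt2. The zinc importer gene Slc39a10 was at 10.19 and 10.55 against 10.26 and 8.92, overlapping.

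The promoters of this pair are shown because both genes were lower on both arrays. They are the 250 bases before the RefSeq start on build GRCm38.p6, strand +, chr8:94172368-94172617 for Mt2 and chr8:94178839-94179088 for Mt1, with the core of the metal response element bound by MTF1 in capitals on either strand. The letters searched were TGCACNC and TGCGCNC on both strands, where matches may overlap.
Mt2: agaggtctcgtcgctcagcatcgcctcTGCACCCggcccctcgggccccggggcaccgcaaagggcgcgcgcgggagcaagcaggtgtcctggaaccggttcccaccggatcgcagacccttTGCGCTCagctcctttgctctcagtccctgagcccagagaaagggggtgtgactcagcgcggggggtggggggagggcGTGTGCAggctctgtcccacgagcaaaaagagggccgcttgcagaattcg
Mt1: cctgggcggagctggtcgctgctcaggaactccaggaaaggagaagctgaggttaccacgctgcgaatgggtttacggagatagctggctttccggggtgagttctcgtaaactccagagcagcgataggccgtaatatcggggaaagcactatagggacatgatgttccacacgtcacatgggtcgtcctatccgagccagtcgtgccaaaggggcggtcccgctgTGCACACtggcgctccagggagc
The Mt2 window held 3 matches and the Mt1 window 1. Bases after the RefSeq start were not searched, so these are not counts for the whole promoters. Of 27025 gene windows of this length, 23.8% held at least 1 match and 1.46% held 3 or more. Of the 13 list members with a window, 8 held a match (61.5%). The share was not particular to this list, since 16 of 28 glycolysis and hypoxia genes with a window held this match too (57.1%). A match is a description of the letters and was not tested against any value.

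The remaining genes picked by the naming rule, that is with an unadjusted p under 0.01, a mean above that of the median feature and groups that did not overlap, had varied functions. Nes encodes nestin, an intermediate filament of progenitor, endothelial and muscle cells, and was at 8.11 and 8.01 in Nlrx1-/- hosts and 9.19 and 9.32 in WT hosts. Its difference was -1.20 (SE 0.273), with SDs within hosts of 0.067 and 0.095. Plk2, a stress-induced polo-like kinase, was at 7.84 and 7.45 against 8.42 and 9.39, a difference of -1.26 (SE 0.365). Bmp7, a bone morphogenetic protein, was at 5.99 and 6.14 against 6.67 and 7.50, a difference of -1.02 (SE 0.315). Cstdc6, of the mouse stefin A family of cysteine protease inhibitors, was at 5.43 and 5.13 against 7.25 and 6.62, a difference of -1.65 (SE 0.461), and its feature may also read its near-identical relatives. Ubtd1, a ubiquitin domain protein, was the only higher gene the rule took. It was at 10.99 and 11.36 in Nlrx1-/- hosts and 10.06 and 10.12 in WT hosts, a difference of 1.08 (SE 0.265). On all the fitted arrays outside Nlrx1-/- 4T1OE tumours Ubtd1 lay between 9.91 and 10.30. Over all features 17 had an unadjusted p under 0.01, a smaller share than that threshold takes where nothing differs. Of these 17, 9 met the rule, 1 higher and 8 lower.

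Neutrophil genes were lower in Nlrx1-/- hosts on average, with WT replicate 2 the highest of the 4 arrays. Retnlg, a resistin-like gene of mouse neutrophils, was at 6.01 and 6.52 in Nlrx1-/- hosts and 7.91 and 10.26 in WT hosts, a difference of -2.82 (SE 0.997). The calprotectin genes S100a8 and S100a9 were picked with their values in view. S100a8 was at 8.72 and 9.47 against 10.10 and 12.28, and S100a9 at 9.98 and 10.13 against 11.15 and 12.65. In each of these 3 genes both WT arrays lay above both Nlrx1-/- arrays and WT replicate 2 was far above WT replicate 1. Of 19 neutrophil markers, which count Mmp9 too, 0 passed, 0 were higher and 3 (Mmp9, Retnlg and Mpo) lower at an unadjusted p under 0.05, and 0 higher and 5 lower met the rule without a p. Over all features 0.549% were lower at that p and 0.342% by the rule. Mmp9 was among the genes that the comparison was proposed for, so its place in both counts adds no support. Of the differences 3 were positive and 16 negative, with a median of -0.53. Mpo, the myeloperoxidase of early neutrophils, was dim on all 4 arrays, as were 4 other granule genes of the list. Without WT replicate 2 the list's median was -0.25.

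Inflammatory cytokine and NF-kB target genes had the same arrays high and low. Ptgs2, which encodes the inducible cyclooxygenase, was at 9.81 and 9.40 in Nlrx1-/- hosts and 10.97 and 12.48 in WT hosts, a difference of -2.12 (SE 1.18). Csf3, which encodes the neutrophil growth factor G-CSF, was at 8.08 and 7.77 against 8.73 and 10.62. Cxcl1, a neutrophil attractant, was at 6.68 and 6.71 against 7.35 and 9.60. Cxcl5, another such chemokine, was at 5.33 and 5.37 against 5.67 and 8.03, so that only WT replicate 2 was clearly above background. Of the 32 genes of the list, 0 had an unadjusted p under 0.05, while 0 higher and 7 lower met the rule without a p, beside 0.275% higher and 0.342% lower over all features, and 9 differences were positive and 23 negative, with a median of -0.52. Il1b did not separate the hosts, at 12.03 and 11.93 against 11.89 and 12.91. Tnfaip3, the NF-kB feedback inhibitor A20, was at 10.05 and 9.16 against 9.98 and 11.16, with overlapping groups, and Icam1 ran the other way, at 8.29 and 8.33 against 7.88 and 7.69. Csf3, Cxcl1, Cxcl5 and Il1b were picked with their values in view. Without WT replicate 2 the list's median was -0.31.

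**Figure D3:**
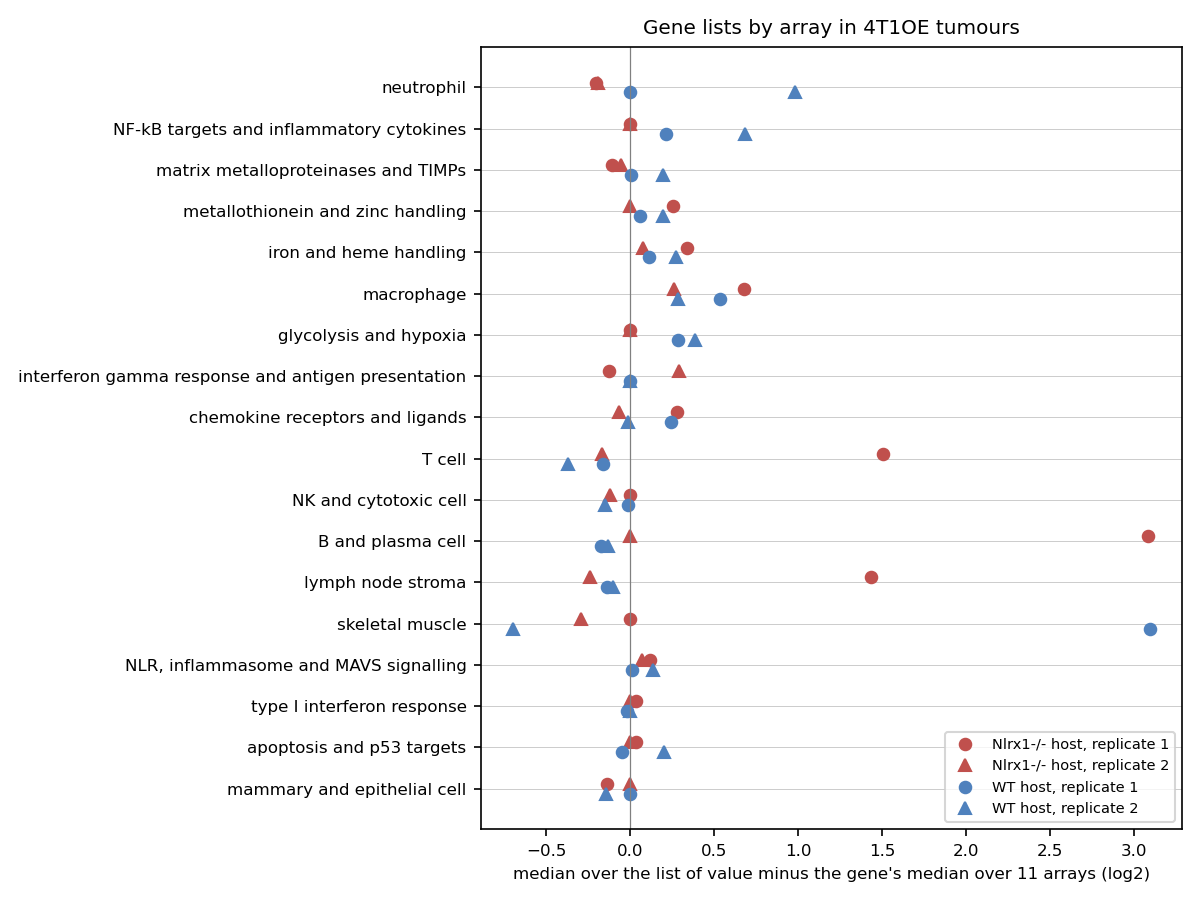
Deviation of 18 gene lists on the 4 arrays of 4T1OE tumours, where a list's deviation is the median, over its genes, of an array's value less the middle value of the 11 fitted arrays (horizontal axis, log2), with Nlrx1-/- arrays in red just above WT arrays in blue, circles for replicate 1 and triangles for replicate 2. The neutrophil list was at -0.21 and -0.19 on the Nlrx1-/- arrays and at 0.00 and 0.98 on the WT arrays, and the lymphoid and muscle lists were each set by a single array.

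Glycolysis and hypoxia genes were lower in Nlrx1-/- hosts by small amounts in nearly the whole list. Of 29 genes 2 differences were positive and 27 negative, with a median of -0.30 beside 6e-04 over all features, and the list's median ran from -0.31 to -0.26 without single arrays. In 14 genes both Nlrx1-/- arrays lay under both WT arrays and in 1 above them, where 16.6% of all features were lower and 15.7% higher without overlap. No gene passed, 0 were higher and 1 (Adm) lower at an unadjusted p under 0.05, and 0 higher and 3 lower (Adm, Slc2a1 and Ndrg1) met the rule without a p. Adm, which encodes the vasodilator adrenomedullin, was at 10.01 and 9.23 in Nlrx1-/- hosts and 10.87 and 11.61 in WT hosts, a difference of -1.62 (SE 0.567). Slc2a1, the glucose transporter GLUT1, was at 15.57 and 15.40 against 16.50 and 16.65, a difference of -1.09 (SE 0.571). Ndrg1, a hypoxia-induced gene, was at 15.39 and 14.66 against 15.87 and 16.51, and Bnip3, a hypoxia-induced mitophagy receptor, at 10.49 and 10.55 against 10.94 and 11.65. In each of these 4 genes the groups did not overlap. Ero1a, an oxidase of the endoplasmic reticulum, and Bhlhe40, a transcriptional repressor, are also hypoxia-induced and were picked with their values in view, with differences of -1.16 (SE 0.794) and -1.19 (SE 0.441).

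Windows of 3 of these genes are shown because the list held its direction in most members. They are the 250 bases before the RefSeq start on build GRCm38.p6, chr7:110627407-110627656 on strand + for Adm, chr4:119108495-119108744 on strand + for Slc2a1 and chr7:138909507-138909756 on strand - for Bnip3, each written 5′ to 3′ along the gene. Capitals mark the core of the hypoxia response element, searched as ACGTG and GCGTG on both strands, where matches may overlap.
Adm: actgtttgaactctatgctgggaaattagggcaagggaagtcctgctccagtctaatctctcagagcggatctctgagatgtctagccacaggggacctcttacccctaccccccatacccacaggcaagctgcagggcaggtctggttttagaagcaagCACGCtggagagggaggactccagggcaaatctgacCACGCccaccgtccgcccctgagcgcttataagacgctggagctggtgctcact
Slc2a1: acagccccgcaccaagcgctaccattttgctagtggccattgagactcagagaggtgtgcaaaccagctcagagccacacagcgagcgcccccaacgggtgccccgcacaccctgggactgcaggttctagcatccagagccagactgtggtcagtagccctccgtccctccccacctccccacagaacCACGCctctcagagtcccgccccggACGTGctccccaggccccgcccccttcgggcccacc
Bnip3: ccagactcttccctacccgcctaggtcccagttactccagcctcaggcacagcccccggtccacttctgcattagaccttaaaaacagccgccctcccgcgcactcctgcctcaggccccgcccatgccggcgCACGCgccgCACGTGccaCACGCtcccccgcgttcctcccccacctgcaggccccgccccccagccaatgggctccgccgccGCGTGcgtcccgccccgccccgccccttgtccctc
The windows held 2 matches for Adm, 2 for Slc2a1 and 5 for Bnip3. At least 1 match was found in 41.5% of 27025 gene windows and in 26 of the 28 list members with a window (92.9%). Of 13 metallothionein and zinc handling genes with a window, 9 held this match (69.2%), also above the share of all windows. These are matches of letters only, and binding was not measured.

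Arginase 1, the Arg1 product, consumes arginine in tumour macrophages and neutrophils, and its gene was picked with its values in view. It was at 10.87 and 12.09 in Nlrx1-/- hosts and 13.15 and 13.82 in WT hosts, with no overlap and a difference of -2.0 (SE 0.828). In 4T1OE-CTL tumours the fitted difference was -0.30 and in parental tumours, with 1 fitted Nlrx1-/- array, 2.68. The Nlrx1-/- parental array left out was at 12.68, between the WT parental arrays at 11.76 and 14.62. Macrophage markers as a list did not differ between hosts in 4T1OE tumours in the way Arg1 did. Of 18, 0 had an unadjusted p under 0.05 and 0 met the rule without a p in either direction, with 13 positive and 5 negative differences and a median of 0.12. Cx3cr1, the fractalkine receptor of macrophages and monocytes, was at 11.05 and 10.03 against 9.85 and 9.68. Mfge8, a bridge to apoptotic cells, was counted among the lymph node stroma and milk protein genes and not among the macrophage markers. It was at 13.59 and 12.64 against 12.40 and 12.31, highest on the array with lymphoid genes.

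On the higher side in Nlrx1-/- hosts stood genes of antigen presentation by MHC class II. H2-Aa, the alpha chain of I-A, was at 15.92 and 15.31 in Nlrx1-/- hosts and 14.41 and 14.01 in WT hosts, without overlap, and the difference was 1.40 (SE 0.566, 95% interval 0.14 to 2.67). H2-Ab1, the beta chain, was at 12.79 and 12.83 against 12.35 and 11.55, a difference of 0.86 (SE 0.567). Ciita, the master activator of class II genes, was at 8.32 and 7.36 against 6.39 and 6.66, a difference of 1.32 (SE 0.657). H2-DMa and H2-DMb1, whose products load peptide onto class II, and H2-Eb1 were picked with their values in view, and their differences were 0.84, 0.87 and 0.74 with SEs of 0.584 to 0.640. Nlrx1-/- replicate 1 held B cell genes, and B cells express class II genes too, and their part in these differences was not tested. Nlrx1-/- replicate 2 lay above both WT arrays in each of these 6 genes, while H2-Eb1 was at 12.15 on replicate 1 of both hosts. Without both arrays that stood apart, H2-Aa was at 15.31 against 14.01. Features of the H2 family may read their close relatives.

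The wider list of interferon gamma response and antigen presentation genes showed small differences. Of 27 genes, 0 passed, 1 (H2-Aa) was higher and 0 lower at an unadjusted p under 0.05, and 2 higher (H2-Aa and Ciita) and 0 lower met the rule without a p, beside 0.275% of all features higher. Differences were positive in 19 and negative in 8, with a median of 0.13, which was -0.07 without Nlrx1-/- replicate 2 and 0.48 without both arrays that stood apart. Cxcl9, an interferon gamma-induced chemokine that attracts T cells, was at 13.17 and 14.70 in Nlrx1-/- hosts and 13.09 and 13.27 in WT hosts, with overlapping groups.

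Chemokines and their receptors were split, with 14 positive and 13 negative differences among 27 genes and a median of 0.04, which was -0.07 without Nlrx1-/- replicate 1 and 0.19 without WT replicate 1. At an unadjusted p under 0.05, 2 were higher (Ccr2 and Ccl5) and 2 lower (Ccl24 and Ppbp), and 3 higher and 3 lower met the rule without a p. Ccr2, the receptor that draws monocytes out of the bone marrow, was at 11.87 and 11.99 in Nlrx1-/- hosts and 11.43 and 10.32 in WT hosts, a difference of 1.05 (SE 0.445). Ccl5, a T cell and monocyte attractant, was at 8.66 and 6.08 against 5.63 and 5.01, so the array with lymphoid genes was the highest. Ccl24, an eosinophil attractant that macrophages make, was at 7.55 and 8.28 against 8.76 and 9.78, a difference of -1.35 (SE 0.512). Pf4, the platelet factor also made by macrophages, was at 8.33 and 7.79 against 9.59 and 9.37 and was picked with its values in view. Ppbp, another platelet chemokine, was dim in Nlrx1-/- hosts and too near background in WT hosts for a size.

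The lists of NLR, inflammasome and MAVS signalling and of the type I interferon response held 0 genes that passed in limma, 0 at an unadjusted p under 0.05 and 0 that met the rule without a p. Among 25 genes of NLR, inflammasome and MAVS signalling, 13 differences were positive and 12 negative, with a median of 0.07. Nlrp3, the inflammasome sensor, was at 6.19 and 6.60 in Nlrx1-/- hosts and 7.34 and 6.96 in WT hosts, a difference of -0.76 (SE 0.370). Cgas, the cytosolic DNA sensor, was at 7.36 and 7.31 against 7.64 and 7.94, and Ikbke, a kinase downstream of MAVS, at 7.99 and 8.07 against 7.53 and 7.80. Among 26 type I interferon response genes, 18 differences were positive and 8 negative, with a median of 0.10. Oas1a was at 7.06 and 7.06 in Nlrx1-/- hosts and 6.30 and 6.49 in WT hosts, a difference of 0.67 (SE 0.378). Cmpk2 was at 7.20 and 6.97 against 6.60 and 6.68, and Isg15 at 6.72 and 6.02 against 6.20 and 5.31, where the groups overlapped. Rsad2, which encodes viperin, was dim in Nlrx1-/- hosts, where its bound was -0.17.

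Apoptosis and p53 target genes had 9 positive and 11 negative differences among 20, a median of -0.04 and 1 gene, Plk2, lower at an unadjusted p under 0.05. The median was -0.20 without Nlrx1-/- replicate 1, -0.24 without WT replicate 1, -0.36 without both and 0.08 without WT replicate 2. Cdkn1a, the cell cycle inhibitor p21, was at 9.12 and 8.30 in Nlrx1-/- hosts and 8.86 and 10.55 in WT hosts, with overlapping groups. Mammary and epithelial cell genes had 18 positive and 9 negative differences among 27, a median of 0.11 and 0 at an unadjusted p under 0.05. The 19 lists not described here held 355 genes, of which 0 passed, 1 was higher and 0 lower at an unadjusted p under 0.05, and their medians lay between -0.31 for endothelial cells and 0.23 for fibroblasts.

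Lymphoid genes were among the higher genes, and for them a single array set the difference. Over all features 0.275% were higher and 0.342% lower by the rule without a p, and 0.324% and 0.549% at an unadjusted p under 0.05. Of 14 B and plasma cell markers, 7 higher and 0 lower met the rule without a p, with 0 at an unadjusted p under 0.05 and a median of 1.64. The list deviated by 3.09 on Nlrx1-/- replicate 1, 0.00 on replicate 2, and -0.17 and -0.13 on the WT arrays. Cd79a, the B cell receptor signalling chain, was at 9.72 and 3.46 in Nlrx1-/- hosts and 3.63 and 3.82 in WT hosts, and the joining chain gene Jchain at 9.85 and 4.19 against 3.78 and 3.93. On Nlrx1-/- replicate 2 Cd79a was thus as dim as in WT hosts. Of 13 T cell markers, 1 (Zap70, dim on all 4 arrays) was higher and 0 lower at an unadjusted p under 0.05, 5 higher and 0 lower met the rule without a p, and the median was 1.13. The list deviated by 1.51 and -0.17 on the Nlrx1-/- arrays against -0.16 and -0.37 on the WT arrays. Cd3e, a chain of the T cell receptor complex, was at 8.90 and 4.88 against 5.35 and 5.31. Of 11 lymph node stroma genes, 1 higher and 0 lower met the rule, with deviations of 1.43 and -0.24 against -0.14 and -0.11, and Ccl21a, the T zone chemokine, was at 12.32 and 5.56 against 6.28 and 6.02. Without Nlrx1-/- replicate 1 the median was -0.05 for T cell, 0.06 for lymph node stroma and 0.11 for B and plasma cell genes. Cd3e, Cd79a and Ccl21a were picked with their values in view.

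Cytotoxic genes did not go with the T cell list. Of 14 NK and cytotoxic cell genes, 1 (Ccl5) was higher and 0 lower at an unadjusted p under 0.05, and the median was 0.09, with 5 genes dim on all arrays. Granzyme A (Gzma) was at 7.91 and 8.23 in Nlrx1-/- hosts and 7.57 and 7.05 in WT hosts, whereas granzyme B (Gzmb) was at 7.04 and 8.21 against 8.42 and 8.75. The perforin gene Prf1 was at 7.13 and 7.57 against 7.75 and 8.46. Gzmb and Prf1 were thus lower, without overlap, on the very array that was rich in T cell genes as well as on the other.

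Across the genes taken by the rule without a p, the spread within a host was uneven between arrays. Of the 56 higher genes with a symbol, Nlrx1-/- replicate 1 exceeded replicate 2 by 1 or more in 43. Of the 75 lower genes with a symbol, WT replicate 2 exceeded replicate 1 by that much in 22 and the reverse held in 10. A side was dim in 23 of the higher and 12 of the lower genes, and an unadjusted p under 0.05 was found for 10 of the higher and 37 of the lower. Of the 22 genes of the skeletal muscle list 0 met the rule, while 2 differences were positive and 20 negative with a median of -1.27, and without WT replicate 1 the median was 0.42. Nrap and Ppp1r3a, muscle genes outside that list, did meet the rule on the lower side, with WT replicate 1 the highest array in both. Nrap, picked with its values in view, was dim in Nlrx1-/- hosts, at 4.85 and 4.64 against 6.36 and 5.26 in WT hosts. Ppp1r3a, picked likewise, was dim in Nlrx1-/- hosts, at 3.71 and 4.51 against 6.75 and 4.80.

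The host difference in 4T1OE tumours was set beside that in 4T1OE-CTL tumours, which shares no array with it. Across all 22206 features, which are not independent, the 2 sets of differences were weakly related (Pearson r 0.228, Spearman rho 0.088), and 52.0% of features had the same sign. Replicate 1 of the Nlrx1-/- hosts was high in lymphoid genes in both lines, and its part in this was not tested. Of the 56 higher genes with a symbol 49 were positive in 4T1OE-CTL tumours (87.5%), and of the 75 lower genes 60 were negative there (80.0%). In parental tumours, with 1 Nlrx1-/- array, 28 of the 56 were positive and 26 of the 75 negative, where 50.8% of all features had the same sign as in 4T1OE tumours.

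Several of the lower genes had nearly equal differences in both transduced lines. Mt2 differed by -1.97 (SE 0.549) in 4T1OE and -2.29 (SE 0.549) in 4T1OE-CTL tumours, Retnlg by -2.82 and -2.79, Nes by -1.20 and -1.14, Plau by -1.04 and -1.14, and Adm by -1.62 and -1.62. In parental tumours, with a single fitted Nlrx1-/- array, the same genes differed by 0.04, 0.54, 0.22, -0.10 and 0.70. The Nlrx1-/- parental array left out of the fits lay below both WT parental arrays for Mt2, Nes, Plau and Adm. For Retnlg it lay between them. Slc40a1 had -1.88 in 4T1OE, -1.51 in 4T1OE-CTL and 1.16 in parental tumours. For both Slc40a1 and Bmp7 the fitted Nlrx1-/- parental array lay above both WT parental arrays, and the one left out lay below them. For Slc40a1 the 4T1OE difference was -3.03 away from the parental one (interaction, limma, adjusted p = 1), and for Bmp7 it was -2.06 away (limma, adjusted p = 1). No interaction passed over all features. Against parental tumours 663 of 22206 features (2.99%) had an unadjusted p under 0.05 and 0 an adjusted one (limma).

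**Figure D4:**
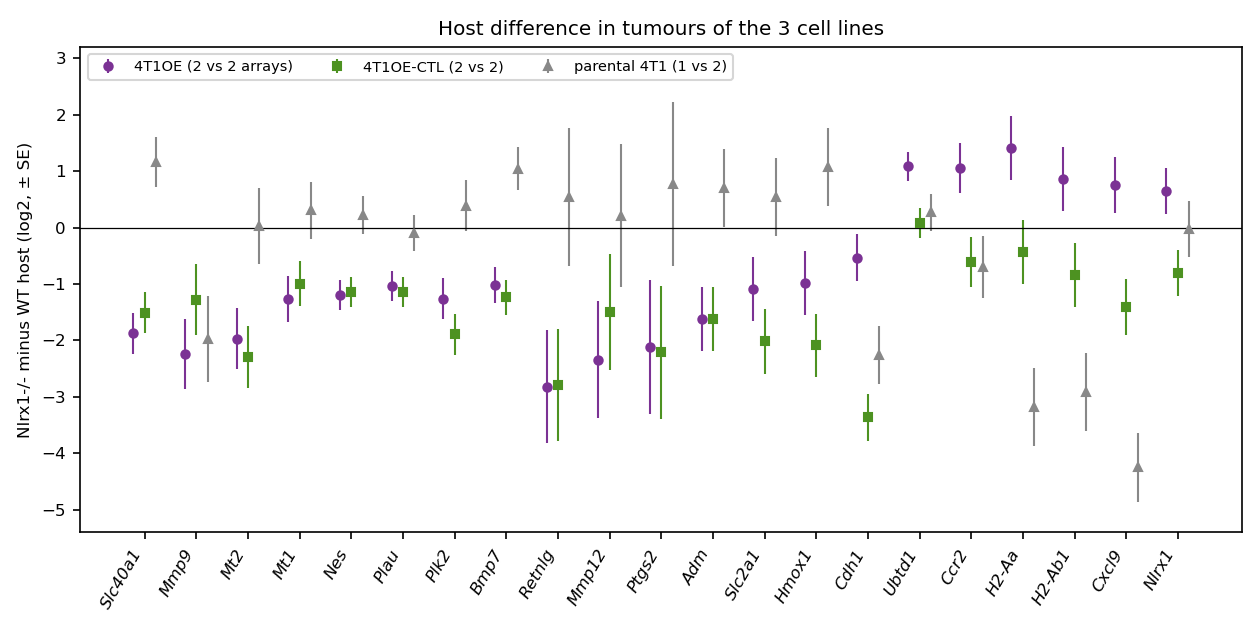
Host difference, Nlrx1-/- minus WT (vertical axis, log2, with bars of 1 SE), for 21 genes in tumours of 4T1OE (circles), 4T1OE-CTL (squares) and parental 4T1 (triangles, 1 Nlrx1-/- array against 2 WT arrays). Circles and squares lie close together for Mt2, Nes, Plau, Retnlg and Adm, while for H2-Aa, H2-Ab1, Cxcl9, Ccr2 and Nlrx1 the 4T1OE difference is positive and the 4T1OE-CTL difference negative. The groups overlapped in 4T1OE for Cxcl9 and Nlrx1, and in 4T1OE-CTL for H2-Aa, H2-Ab1 and Ccr2.

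H2-Aa, an antigen presentation gene, had fitted host differences of the opposite sign in the other lines. In 4T1OE-CTL tumours the groups overlapped, at 16.37 and 14.81 in Nlrx1-/- hosts against 15.48 and 16.55 in WT hosts (SE 0.566). H2-Aa differed by 1.40 in 4T1OE, -0.43 in 4T1OE-CTL and -3.19 in parental tumours, with interactions of 1.83 (limma, adjusted p = 0.999) against 4T1OE-CTL and 4.59 (adjusted p = 1) against parental tumours. Cxcl9 differed by 0.76, -1.41 and -4.25 in the same order. The parental value rests on 1 fitted Nlrx1-/- array, at 6.52. The Nlrx1-/- parental array left out was at 12.29, above the WT parental arrays at 10.37 and 11.16. Of the 27 genes of the interferon gamma and antigen presentation list, 9 had an unadjusted p under 0.05 for the interaction with 4T1OE-CTL and 0 passed. Over all features 726 (3.27%) had such a p and 0 passed in limma. This too is a smaller share than a threshold of 0.05 takes where nothing differs. Ccr2 differed by 1.05 in 4T1OE, -0.61 (SE 0.445) in 4T1OE-CTL and -0.70 in parental tumours. Its groups overlapped in 4T1OE-CTL, at 9.94 and 9.13 in Nlrx1-/- hosts against 9.70 and 10.60 in WT hosts. The E-cadherin gene Cdh1 differed by -0.54 in 4T1OE tumours (SE 0.419) and by -3.36 in 4T1OE-CTL and -2.26 in parental tumours, an interaction of 2.82 against 4T1OE-CTL (SE 0.592, limma, adjusted p = 0.999). Both Nlrx1-/- arrays of 4T1OE-CTL tumours, and WT replicate 1 of that line, had narrower value distributions, with standard deviations of 2.91, 2.78 and 2.89 beside 3.09 to 3.12 in 4T1OE tumours, and the part of this in the interactions was not tested.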

How the data were processed

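Deposited values were log2 expression, 1 per transcript cluster, made by the authors with the Transcriptome Analysis Console (no version), per the submitters' processing notes. How they normalized them is not given in the sources used here, and values were used without further scaling. Of 28846 features, 6640 controls (prefixes MG-1, AFFX and ERCC) were dropped. Of the 22206 left, 19572 had 1 gene symbol. Where a gene had several features, as 55 genes did, the brightest stood for it. Groups came from the labels, and 1 Nlrx1-/- parental array was left out as its label advised. limma 3.58.1 in R 4.3.3 (lmFit, eBayes, two-sided) was fitted to 11 arrays with 1 mean per group, with Benjamini-Hochberg adjustment over all features, and was tested on simulated data. A column for the manufacturer's control RNA, 1 in all, was not used. Array number limits the precision.

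The members and the 37 gene lists, 18 of them described, were chosen with earlier results of these data known. Named genes were Nlrx1, Mmp9, Mt2, Slc40a1, up to 15 per direction with unadjusted p under 0.01, non-overlapping groups and a mean above that of the median feature, and up to 4 members of each described list with the smallest p. Any other gene was picked with its values in view. A bound set the brighter side's mean against the dim side, where each array counted with its value or its negative control median, whichever was higher. Promoters were RefSeq windows.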

Additional observations from a re-analysis of the deposited data

How the results depend on the processing

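With 2 arrays a side and pooled tumours, no difference between hosts in 4T1OE tumours could be told from none after adjustment, however large against its error. The count of features passing between hosts in 4T1OE tumours, and of both interactions, was 0 under every alternative that adjusts p. The console's usual rule, an unadjusted p under 0.05 and a fold of 2, took 47 features (10 higher, 37 lower), and 571 and 619 for the interactions with 4T1OE-CTL and parental tumours. Features with an unadjusted p under 0.05 numbered 843 with the compared groups alone, 887 with array weights, 73 with all 12 arrays, 104 without the dimmest 33.3% and 142 without both arrays that stood apart, a setting added after seeing the data, and 107 to 315 without single arrays, beside 194. With the replicate number as a block 0 passed. In 4T1OE tumours, the replicate 1 minus replicate 2 differences of the 2 hosts were unrelated across features (r = 0.003). The numbers were therefore not taken as pairs, and the block is no paired test. Replicate 1 of the Nlrx1-/- hosts was the array highest in the B cell gene Cd79a in all 3 lines.

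Of 112 named genes, 98 kept their sign throughout. Without both arrays that stood apart the difference turned for Atp2a1 (0.165), Casq1 (0.097), Myh4 (0.056), Timp1 (0.285), Ccl19 (-0.194), Ccl21a (-0.452), Cd3e (-0.428), Cd79a (-0.362), Cxcl13 (-0.405) and Lyve1 (-0.242). Without single arrays the ranges that crossed 0 were -6.686 to 0.329 for Atp2a1, -9.833 to 0.513 for Myh4, -5.791 to 0.067 for Tnni2, -1.145 to 0.002 for Timp1, -0.224 to 3.147 for Ccl19, -0.582 to 6.178 for Ccl21a, -0.448 to 3.571 for Cd3e, -0.264 to 5.994 for Cd79a, -0.537 to 8.116 for Cxcl13, -0.294 to 1.381 for Lyve1, -0.012 to 1.524 for Cxcl9, -0.93 to 0.042 for Fas and -0.935 to 0.086 for Il1b. The rule without a p took 61 features higher and 76 lower. These counts were 52 and 72 after quantile normalization, 57 and 174 without Nlrx1-/- replicate 1, 390 and 121 without Nlrx1-/- replicate 2, 189 and 271 without WT replicate 1, 98 and 135 without WT replicate 2, and 175 and 412 without both arrays that stood apart. With 1 array on a side, non-overlap is by construction a weaker demand.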

Other observations

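The stefin A cluster, mouse genes for small cysteine protease inhibitors that neutrophils and skin express, held further lower values in Nlrx1-/- hosts beside Cstdc6. All were picked with their values in view, and their sequences are so alike that a feature may read several of them. Cstdc4 was at 6.86 and 6.85 in Nlrx1-/- hosts and 8.16 and 8.72 in WT hosts, and Stfa2 at 7.51 and 7.50 against 8.39 and 9.77. Stfa2l1 was at 7.93 and 7.76 against 8.47 and 9.92, and Csta2 at 5.93 and 6.22 against 6.51 and 7.73. In these 4 genes WT replicate 2 was the highest array, as for neutrophil genes. Cstdc5 was at 5.77 and 5.46 against 9.43 and 6.18, and Stfa3 at 4.89 and 5.41 against 7.11 and 5.51. In these 2, and in Cstdc6 at 7.25 against 6.62 on WT replicate 2, WT replicate 1 was the highest. It was so for Krt10, a keratin of the upper epidermis, at 5.60 and 5.39 against 11.42 and 5.61. Hrnr, Calm4 and Dsg1a, likewise genes of the epidermis, were dim in Nlrx1-/- hosts, and WT replicate 1 was at 6.76, 7.13 and 6.98 for them, against 4.48, 4.82 and 4.91 on WT replicate 2.

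Ankrd1, Ccn1 and Tpm1 were picked with their values in view because they were lower in Nlrx1-/- hosts, and no list or test stands behind them as a group. Ankrd1 was at 10.88 and 10.43 in Nlrx1-/- hosts and 11.79 and 12.30 in WT hosts. Ccn1 was at 12.96 and 12.46 against 13.60 and 13.91. Both are textbook targets of YAP, and neither pair of groups overlapped. Tpm1, a tropomyosin gene that skeletal muscle also expresses, was at 14.39 and 14.63 against 15.94 and 15.14, with the muscle-rich array the highest.

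At the other end, Nxpe2 was at 8.16 and 6.83 in Nlrx1-/- hosts and dim in WT hosts, at 4.49 and 4.59, a difference of at least 2.17. In 4T1OE-CTL tumours Nxpe2 was at 7.89 and 4.56 in Nlrx1-/- hosts against 4.35 and 4.99, overlapping. In parental tumours it was at 6.53 on the fitted Nlrx1-/- array and 6.01 on the one left out, against 5.27 and 4.11 in WT hosts. Gsta2, an alpha class glutathione transferase gene, was at 7.77 and 9.10 in Nlrx1-/- hosts and 7.46 and 6.37 in WT hosts, a difference of 1.52 (SE 0.491). Close relatives of Gsta2 may share its feature. Each difference in this section had an adjusted p of 1 in limma.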
